A study of Glycine max with 20 samples.

Results

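The 100 most abundant leaf transcripts of soybean (Glycine max) were selected on their level: they are the 100 gene models with the highest mean CPM over all 20 libraries, of 66210 gene models in the count table, or 0.151% of them. CPM is a model's reads scaled to a common total of reads in gene models, and it is not corrected for transcript length. Ranks are thus by reads. The height of these 100 levels is what chose the members and is therefore given as a description. Their differences with hour and line did not enter the choice directly, but a model that is very high in 1 library can enter through it. The models just inside the limit were Glyma15g03040.1 at rank 98 with a mean of 695 CPM, Glyma04g11400.1 at rank 99 with 686 CPM and Glyma09g32120.1 at rank 100 with 679 CPM. The models just outside it were Glyma05g29000.1, Glyma05g23230.1 and Glyma02g11580.1, with means of 675, 673 and 672 CPM.

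The libraries came from leaves of a pair of near-isogenic lines that differ in resistance to the soybean aphid, a phloem-feeding insect. The labels give the genotypes as rag2, which is susceptible, and Rag2, which is resistant. Each line was sampled without aphids, taken here as 0 h, and 4, 8, 24 and 48 h after infestation, with 2 biological replicates per line and hour. The count table calls the lines W and BC, and no label ties either name to a genotype, so differences are given as BC minus W. The 0 h libraries were the only ones without aphids, so hours of infestation and hour of sampling cannot be told apart. Gene models held between 7558768 and 38227436 reads per library. All 100 members were detected in every library, and the fewest reads of a member in a library were 258.

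The mRNA pool of a green leaf is typically led by nuclear genes of photosynthesis, such as those for the small subunit of Rubisco and the chlorophyll-binding proteins of the light-harvesting antennae. Many such genes follow the daily cycle of light, so their levels depend on the hour at which a leaf is taken. In an mRNA library a few very abundant transcripts also set how many reads are left for all others, so levels in CPM are relative. In whole leaves, fewer cells of a type and less RNA per cell cannot be told apart. None of the 66210 names matched the RefSeq gene table at hand, so no member has a gene name or a role here, and leaf identity was not analysed here through marker genes. Soybean carries many duplicated genes, and reads of near-identical copies, overlapping genes or antisense genes could not be separated with the information given.

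Some libraries stood apart in the levels of the members. With each member centred on its mean, replicate 1 of W at 4 h was most like replicate 2 of BC at 4 h, with a correlation of 0.671 across the 100 members, and its correlation with its own replicate was -0.174. In BC the correlation between the 4 h replicates was 0.0561. Whether libraries at 4 h were exchanged was not tested, and the libraries keep their labels, so results are given also without the 4 h libraries where that could be done. Replicate 2 of BC at 0 h had 7.46% of its reads outside gene models, more than any other library, and was the highest library for 8 members and the lowest for 13. It belongs to the baseline of every comparison with 0 h, so results are given also without it where they move.

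The members held between 5.51% and 20.8% of all gene model reads of a library, with a mean of 13.6 ± 3.59% (SD, n = 20). In W the share of replicates 1 and 2 was 12.0% and 12.2% before infestation, 18.0% and 10.9% at hour 4, 14.1% and 12.1% at hour 8, 16.1% and 14.5% at hour 24 and 20.8% and 18.7% at hour 48. In BC it was 17.1% and 12.8% before infestation, 8.88% and 15.1% at hour 4, 9.13% and 5.51% at hour 8, 15.1% and 13.0% at hour 24 and 13.4% and 13.5% at hour 48. The highest shares were those of both W libraries at 48 h, and the lowest was that of replicate 2 of BC at 8 h. The 95% Wilson interval of a library's share was at most 0.0515 percentage points wide, which covers counting error only. The differences between replicates were far wider than that: they reached 7.04 percentage points in W at 4 h and 6.22 points in BC at 4 h, in opposite order of the replicate numbers.

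**Figure D1:**
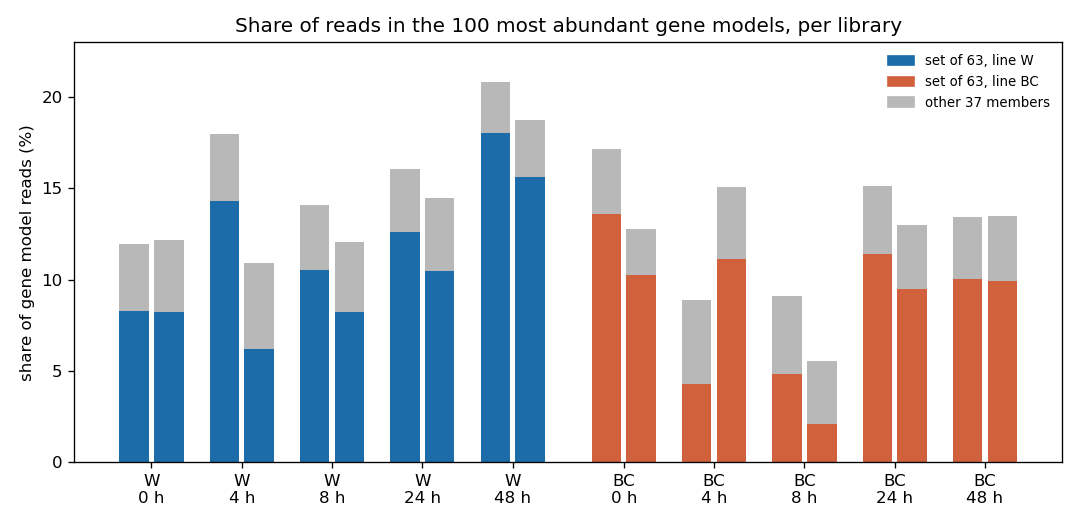
Share of gene model reads held by the 100 members in each of the 20 libraries (bars, replicate 1 on the left of each pair), split into the set of 63 members that varied together (coloured by line) and the other 37 (grey). The total runs from 5.51% in replicate 2 of BC at 8 h to 20.8% in replicate 1 of W at 48 h, and the grey part only from 2.48% to 4.73%.

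By hour, over both lines, the share was 13.5 ± 2.45% before infestation, 13.2 ± 4.09% at hour 4, 10.2 ± 3.73% at hour 8, 14.7 ± 1.29% at hour 24 and 16.6 ± 3.76% at hour 48 (SD, n = 4). The libraries of every later hour overlapped those at 0 h. A permutation test with hours permuted within lines gave p = 0.0989 for the 5 hours jointly (100000 draws). Against 0 h, the differences were -0.288 percentage points at hour 4, -3.30 at hour 8, 1.16 at hour 24 and 3.11 at hour 48, and the 4 comparisons share the 0 h libraries. None of them passed an exact two-sided permutation test of 4 libraries against 4, with adjusted p of 0.886, 0.457, 0.571 and 0.457, where the smallest p the design allows is 0.0286 before adjustment. The 4 h difference was positive, at 0.517, 0.923 and 1.00 percentage points, without replicate 2 of W at 4 h, replicate 1 of BC at 0 h or replicate 1 of BC at 4 h. Without the 4 h libraries, a choice made after the values were seen, the joint permutation test gave p = 0.0433. Without replicate 2 of BC at 0 h the 4 differences were -0.537, -3.56, 0.917 and 2.85 percentage points.

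By line, the share was 14.9 ± 3.36% in W and 12.4 ± 3.50% in BC (SD, n = 10 each). BC was 2.57 percentage points lower on average, and the exact permutation test within hours gave p = 0.0754 (two-sided, 7776 arrangements). Without replicate 2 of BC at 0 h the difference was -2.12 percentage points (exact permutation p = 0.172), and without the 4 h libraries -2.60 (exact permutation p = 0.0772). At 0 h the mean was higher in BC, and at 4, 8, 24 and 48 h it was higher in W. The joint test of hours and the test of lines each crossed the threshold when certain libraries were left out. The joint permutation test gave p = 0.0262 without replicate 1 of W at 8 h, 0.0450 without replicate 1 of BC at 48 h and 0.0469 without replicate 2 of BC at 48 h. The exact permutation test of lines gave p = 0.0406 without replicate 2 of W at 4 h, 0.0247 without replicate 1 of BC at 0 h and 0.0496 without replicate 2 of BC at 4 h.

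The reads were concentrated at the top of the list. The 2 most abundant members, Glyma05g25810.1 on chromosome 5 and Glyma08g08770.1 on chromosome 8, together held between 0.239% and 2.92% of the gene model reads. The 10 most abundant held between 0.977%, in replicate 2 of BC at 8 h, and 7.34%, in replicate 1 of W at 48 h. The next 900 models by mean CPM held between 18.4% and 24.5%, a 1.33-fold range against the 3.78-fold range of the members' share. Between 1367 models, in replicate 1 of W at 48 h, and 3925 models, in replicate 2 of BC at 8 h, were needed to reach 50% of the reads. A library's own 100 highest models shared between 48 and 90 with the 100 members, fewest in replicate 2 of BC at 8 h and most in replicate 1 of BC at 48 h. Ranking by the median instead of the mean kept 94 members, ranking within W kept 95, ranking within BC kept 92, and the lists of W and BC shared 87.

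Glyma05g25810.1 had a mean of 9332 ± 4184 CPM (SD, n = 20), from 6297 to 15916 CPM in W (median 10928) and from 1113 to 15146 CPM in BC (median 8828). Glyma08g08770.1 had 8764 ± 3707 CPM, from 5922 to 13473 CPM in W (median 11164) and from 1277 to 13847 CPM in BC (median 8546). Their log2 levels ran almost in parallel over the 20 libraries, with a Pearson correlation of 0.990, given as a description since all models of a library share its scaling. At 8 h their log2 differences from 0 h were -1.24 (standard error 0.52, edgeR adjusted p = 0.233) and -1.27 (standard error 0.49, edgeR adjusted p = 0.195), and neither passed in any of the comparisons below. Next came Glyma13g07610.1 with 6391 ± 3188 CPM, from 2537 to 13192 CPM in W (median 7822) and from 926 to 8844 CPM in BC (median 5758). Glyma14g01130.1 followed with 4668 ± 2219 CPM, from 2315 to 8941 CPM in W (median 4851) and from 593 to 7516 CPM in BC (median 4974). In each of these 4 members the lowest library was replicate 2 of BC at 8 h.

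Glyma07g01730.1, the fifth, did not share that order. Its mean was 3598 ± 2867 CPM, from 1541 to 10309 CPM in W (median 3011) and from 511 to 9134 CPM in BC (median 2635). In W its replicates were 3134 and 3179 CPM without aphids, 8657 and 1541 at hour 4, 10309 and 3797 at hour 8, 2888 and 2301 at hour 24 and 2039 and 2513 at hour 48. In BC they were 2399.5 and 3281 CPM without aphids, 511 and 6319 at hour 4, 767 and 780.3 at hour 8, 756 and 2869.6 at hour 24 and 4782 and 9134 at hour 48. It was high in single replicates at 4 h and 8 h in W and in replicate 2 at 4 h and both replicates at 48 h in BC, and replicates differed up to 12.4-fold. Glyma10g34460.1, the sixth, was the steadiest of the first 6, with 3000.4 ± 1088 CPM and a highest library only 3.60 times the lowest. The remaining members of the first 10 were Glyma01g32750.1, Glyma05g00620.1, Glyma11g34230.1 and Glyma02g47560.1, with means of 2423, 2375, 2287 and 2123 CPM.

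**Figure D2:**
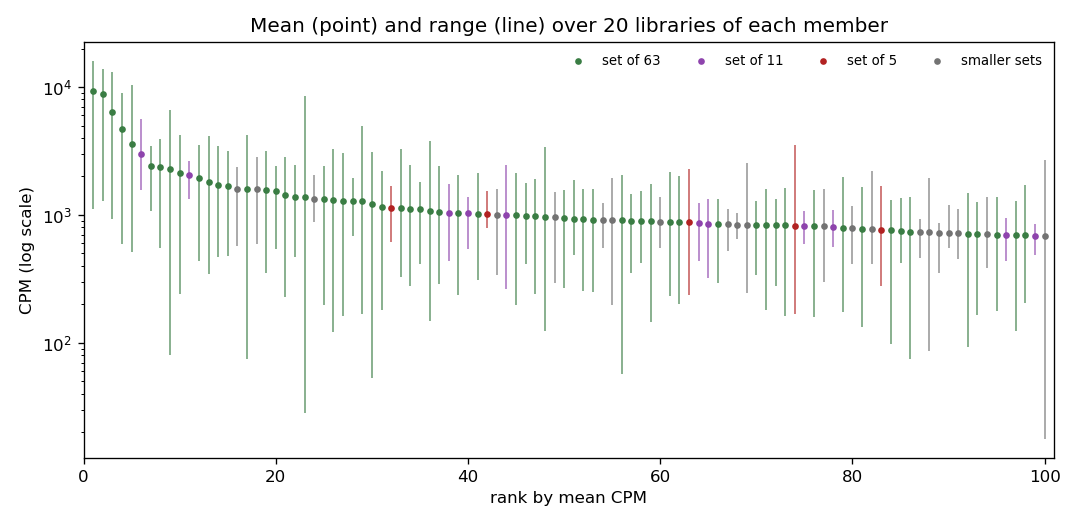
Mean CPM (points) and the lowest to highest library (lines) of each of the 100 members against rank, on a log axis, coloured by the set of members with similar patterns. Means fall from 9332 to 679 CPM, while single members span up to 302-fold between libraries.

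Levels of the members varied widely between libraries. The median coefficient of variation over the 20 libraries was 41.4%, from 10.9% to 129%, and exceeded 50% in 25 members. The ratio of the highest to the lowest library had a median of 7.52, exceeded 10 in 35 members and was at most 2 in 6. In the edgeR fit, the biological coefficient of variation, the spread between replicates beyond counting error, had a median of 0.380 in the members, 0.278 in the next 900 models by mean CPM and 0.237 in all 38918 models tested. The members thus had the most reads behind each value and the widest replicate spread of these 3 groups.

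The steadiest member was Glyma07g33860.1, with 842 ± 92.0 CPM (SD, n = 20), from 651 to 1044 CPM in W (median 858) and from 719.9 to 969 CPM in BC (median 806), a 1.60-fold range. Glyma04g11400.1, Glyma05g11630.1, Glyma08g12140.1 and Glyma19g29180.1 spanned 1.77-fold, 1.83-fold, 1.95-fold and 1.98-fold. At the other end, Glyma15g06270.1 spanned 302-fold. It was at 8464 CPM in replicate 2 of BC at 0 h, at 28.0 CPM in replicate 2 of BC at 8 h, and at 1614 CPM in the other BC replicate at 0 h. No other library exceeded 2166 CPM. Glyma09g32120.1 spanned 152-fold, with the lowest value at 17.6 CPM in replicate 1 of W at 48 h and the highest at 2685 CPM in replicate 2 of W at 4 h. Its replicates at the same line and hour differed by up to 19.3-fold. Glyma11g34230.1, Glyma19g01050.1 and Glyma18g04080.1 spanned 82.8-fold, 57.8-fold and 56.7-fold, each with its lowest value in replicate 2 of BC at 8 h.

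Many members varied together. They were grouped by average linkage of the correlation of their log2(CPM + 1) values over the 20 libraries, joined down to a mean correlation of 0.5. That limit was chosen after the values had been seen, and no test was run on the sets. A set of 63 members, 9 of the first 10 among them, had a median pairwise correlation of 0.814. Single pairs ran from 0.0236 to 0.998, and the lowest correlation of a member with the mean of the rest was 0.504. Of the first 10 only Glyma10g34460.1 lay outside the set, so Glyma07g01730.1 was in it. A looser limit of 0.4 gave the same 63, and a stricter limit of 0.6 gave a largest set of 57, all among the 63. The others fell into a set of 11, a set of 5 and 21 members in smaller sets. Since the sets were made from these levels, their common course is a description.

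The share of the set of 63 ranged from 2.10% to 18.0%. In W its share was 8.30% and 8.23% before infestation, 14.3% and 6.19% at hour 4, 10.5% and 8.23% at hour 8, 12.6% and 10.5% at hour 24 and 18.0% and 15.6% at hour 48. In BC it was 13.6% and 10.3% before infestation, 4.27% and 11.1% at hour 4, 4.82% and 2.10% at hour 8, 11.4% and 9.51% at hour 24 and 10.0% and 9.91% at hour 48. Replicate 1 of W at 48 h was the highest library for 46 of the 63 and replicate 2 of BC at 8 h the lowest for 56. The other 37 members together held 3.66 ± 0.533% (SD, n = 20), between 2.48% and 4.73%, and their median coefficient of variation was 26.3%, against 44.6% in the set of 63.

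**Figure D3:**
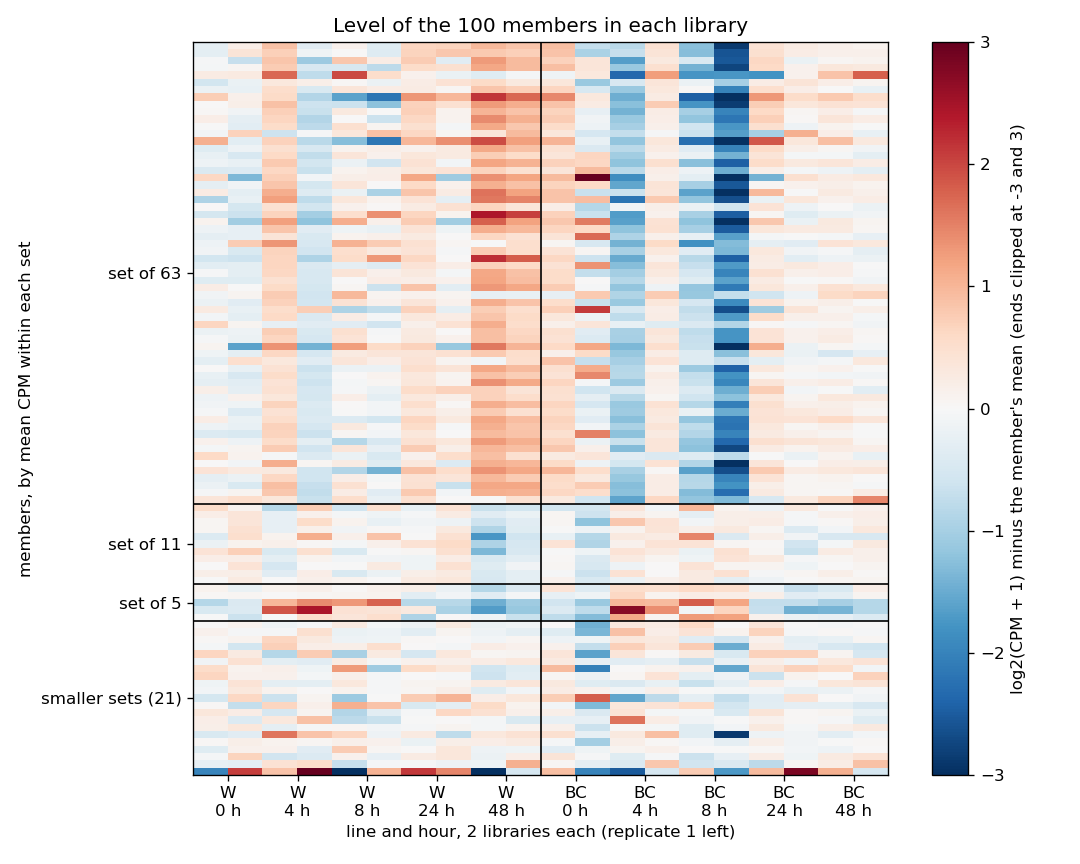
Level of each member in each library as log2(CPM + 1) minus the member's mean, with colours ending at -3 and 3, members ordered by set and libraries by line and hour. The set of 63 is high in W at 48 h, low in BC at 8 h, and at 4 h splits by replicate in both lines, while the set of 5 is high at 4 h and 8 h in both lines.

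Hours and lines were then compared for each member with edgeR's quasi-likelihood test on all 38918 models tested, with p-values adjusted over all of them, and all 100 members were among those tested. The hour comparisons average the lines and share the 0 h libraries. Against 0 h, 2 members rose and 0 fell at 4 h, beside 1.06% of all models higher and 0.583% lower, and 12 members had an unadjusted p below 0.05, beside 15.0% of all models. At 8 h, 2 rose and 8 fell, beside 1.87% higher and 2.05% lower among all models, and 33 had an unadjusted p below 0.05, beside 17.4%. Of the next 900 models by mean CPM, 22 passed at 4 h, or 2.44%, and 73 at 8 h, or 8.11%. The 10 of 100 members that passed at 8 h were thus close to the share among the next 900, and the members that rose were close to the share among all models. The background itself depended on single libraries of the baseline and of the compared hour. More of all models were lower at 8 h without replicate 1 of BC at 0 h. Fewer were lower without replicate 2 of W at 8 h. The count of lower members moved the same way in both fits.

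The 8 h count depended on single libraries. With all libraries it was 10, beside 3.92% of all models. Leaving out any 1 library of W at 0, 8, 24 or 48 h lowered it, most of all replicate 2 at 8 h. Leaving out replicate 2 of BC at 0 h or 8 h, or any 1 BC library at 24 h or 48 h, lowered it too. In each of these fits a smaller share of all models passed as well. The count rose without replicate 1 of BC at 0 h, where a far larger share of all models passed. It also rose without any 1 library at 4 h, or without replicate 1 of BC at 8 h. There the share of all models was slightly higher for the BC libraries at 4 h and lower for the others. Without all the 4 h libraries the count was 18, among them the same 10, beside 4.13% of all models and 10.8% of the next 900. The 4 h count was 7 without replicate 1 of BC at 0 h, beside 13.1% of all models, and 5 without replicate 2 of BC at 4 h, beside 2.20%, and 2 or 3 without any other single library. DESeq2 called 8 members at 4 h, beside 3.93% of all models, and 24 at 8 h, beside 6.55% of all models and 16.2% of the next 900, among them all 10 of edgeR's at 8 h. With limma voom 2 members passed at 4 h, beside 0.27%, and 4 at 8 h, beside 1.52%. Without replicate 2 of BC at 0 h, the 5 members that passed at 8 h were Glyma02g41700.1, Glyma11g34230.1, Glyma16g01870.1 and Glyma18g04080.1, which were lower, and Glyma18g07290.1, which was higher.

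Glyma18g07290.1, on chromosome 18, was the member with the smallest p over the hours. In W its replicates were 361 and 478 CPM without aphids, 1285 and 1732 at hour 4, 1609.9 and 2227 at hour 8, 363 and 363 at hour 24 and 235 and 308 at hour 48. In BC they were 435 and 302 CPM without aphids, 1302 and 1259.6 at hour 4, 2301 and 1478 at hour 8, 397 and 392 at hour 24 and 322 and 357 at hour 48. All 8 libraries at 4 h and 8 h were above all 4 at 0 h, and at 24 h the 4 libraries lay between 363 and 397 CPM, within the range at 0 h. The log2 fold change was 1.76 (standard error 0.25, edgeR adjusted p = 0.00227) at 4 h and 2.13 (standard error 0.25, edgeR adjusted p = 1.66e-04) at 8 h. Both calls held under each of 26 alternatives, 6 of them other analyses and 20 fits that each leave out 1 library.

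Glyma20g28890.1, on chromosome 20, rose at 4 h. In W its replicates were 389 and 402 CPM without aphids, 1986 and 2928 at hour 4, 726 and 703 at hour 8, 649 and 274 at hour 24 and 167 and 240.3 at hour 48. In BC they were 403 and 314 CPM without aphids, 3552 and 1411 at hour 4, 508 and 838 at hour 8, 327 and 197 at hour 24 and 203 and 294 at hour 48. All 4 libraries at 4 h, and all 4 at 8 h, lay above those at 0 h, and the 4 at 48 h lay below them. The log2 fold change at 4 h was 2.63 (standard error 0.36, edgeR adjusted p = 0.00180), and it held under each of the 26 alternatives. At 8 h it was 0.72 (standard error 0.34, edgeR adjusted p = 0.293), which did not pass.

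Glyma17g35720.1, on chromosome 17, rose at 8 h. At 0 h its replicates were 682 and 439.8 CPM in W and 402 and 277 CPM in BC. At 8 h they were 879 and 971 CPM in W and 1671 and 1576 CPM in BC. The 4 libraries at 8 h were all above those at 0 h, with BC above W. The log2 fold change was 1.34 (standard error 0.29, edgeR adjusted p = 0.0159), and it held under 23 of 26 alternatives. Leaving out replicate 2 of BC at 0 h gave 1.21 (edgeR adjusted p = 0.0668).

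These 3 members, with Glyma09g41460.1 and Glyma19g29180.1, made up the set of 5. Together they held 0.328 ± 0.0445% of reads before infestation, 0.739 ± 0.165% at hour 4, 0.637 ± 0.0796% at hour 8, 0.323 ± 0.0405% at hour 24 and 0.285 ± 0.0442% at hour 48 (SD, n = 4). The libraries at 4 h and 8 h did not overlap those of the other hours. This is a description, since the set was formed from the same levels.

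The set of 11 varied less than the set of 63 and was low in both W libraries at 48 h and in replicate 2 of BC at 0 h. Its median pairwise correlation was 0.588 and its median coefficient of variation 20.3%. In W it held 1.42% and 1.54% before infestation, 0.990% and 1.66% at hour 4, 1.10% and 1.41% at hour 8, 1.22% and 1.57% at hour 24 and 0.779% and 0.953% at hour 48. In BC it held 1.18% and 0.837% before infestation, 1.51% and 1.37% at hour 4, 1.72% and 1.38% at hour 8, 1.29% and 1.20% at hour 24 and 1.26% and 1.35% at hour 48. Its lowest library was replicate 1 of W at 48 h, where the set of 63 was highest, and its highest was replicate 1 of BC at 8 h. Glyma10g34460.1 and Glyma17g23900.1 were its most abundant members. Glyma17g23900.1, on chromosome 17, had 2069.6 ± 326 CPM (SD, n = 20), from 1608 to 2643 CPM in W (median 1982) and from 1327 to 2336 CPM in BC (median 2218), with a log2 difference at 8 h of -0.24 (standard error 0.24, edgeR adjusted p = 0.659). For Glyma10g34460.1 that difference was 0.29 (standard error 0.35, edgeR adjusted p = 0.714). No member of the set passed a test at any hour or between the lines.

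**Figure D4:**
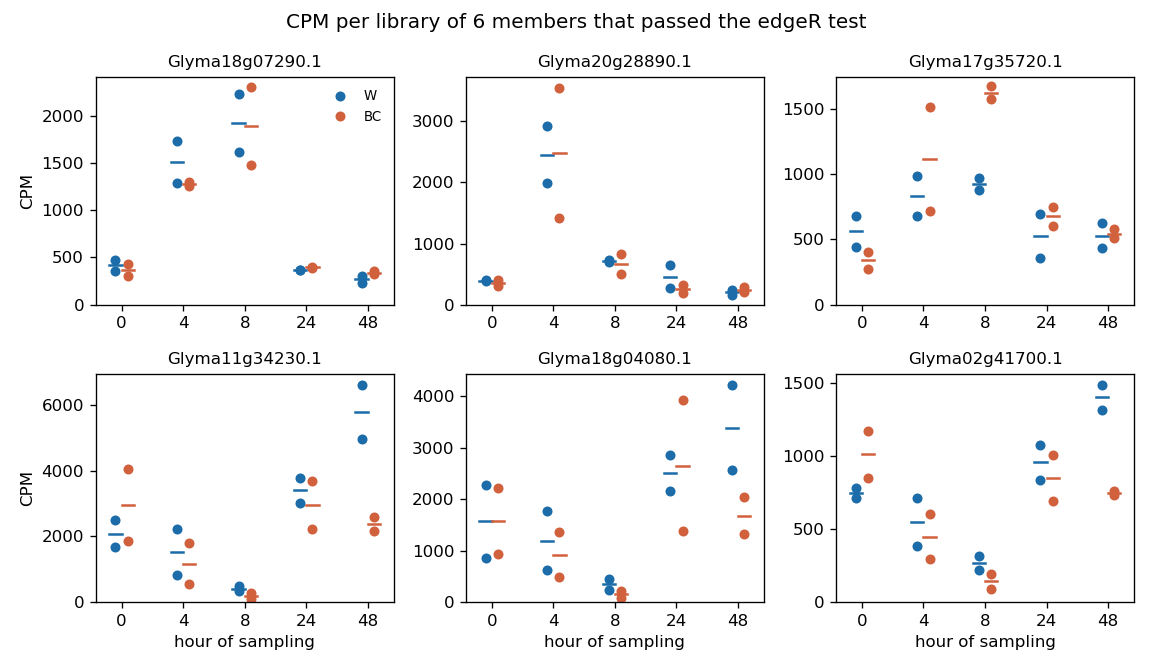
CPM in each library (points) and the mean of both replicates (bars) for the 3 members that rose at 4 h or 8 h (upper row) and the 3 with the largest falls at 8 h (lower row), by hour and line, each panel with its own axis from 0. Glyma18g07290.1 is at 1259.6 CPM or more in all 8 libraries at 4 h and 8 h and at 478 CPM or less in the other 12.

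The largest fall at 8 h was that of Glyma11g34230.1, on chromosome 11, the ninth most abundant member. In W its replicates were 2498 and 1664 CPM without aphids, 2229.6 and 824 at hour 4, 491 and 327 at hour 8, 3796 and 3016 at hour 24 and 6614 and 4962 at hour 48. In BC they were 4073 and 1861 CPM without aphids, 549 and 1795 at hour 4, 273 and 79.9 at hour 8, 3704 and 2215 at hour 24 and 2602 and 2173 at hour 48. All 4 libraries at 8 h were below all 4 at 0 h and below every library at 24 h and 48 h. The log2 fold change at 8 h was -3.33 (standard error 0.58, edgeR adjusted p = 0.00366), and it held under each of the 26 alternatives. Glyma02g41700.1, on chromosome 2, had nearly the same course, with a correlation of 0.993 between the log2 levels of both.

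For Glyma02g41700.1 the replicates in W were 777 and 711 CPM without aphids, 713 and 386 at hour 4, 318 and 219.8 at hour 8, 1073 and 838 at hour 24 and 1487 and 1315 at hour 48. In BC they were 1173 and 846 CPM without aphids, 296 and 599 at hour 4, 189 and 92.4 at hour 8, 1008 and 689 at hour 24 and 731 and 759 at hour 48. Again all 4 libraries at 8 h lay below those at 0 h. The log2 fold change was -2.29 (standard error 0.38, edgeR adjusted p = 0.00257), and it held under each of the 26 alternatives. Glyma18g04080.1, on chromosome 18, was at 2279.7 and 864 CPM in W and 2208 and 925 CPM in BC at 0 h. At 8 h it was at 449 and 241 CPM in W and 224 and 74.2 CPM in BC. The 8 h libraries were all lower, with a log2 fold change of -2.91 (standard error 0.62, edgeR adjusted p = 0.0159), held under 21 of 26 alternatives.

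Glyma14g14220.1, on chromosome 14, was at 956 and 672 CPM in W and 1305 and 3402 CPM in BC at 0 h. At 8 h it was at 412 and 471 CPM in W and 475 and 123 CPM in BC. The 8 h libraries lay below, and the high 0 h value of replicate 2 of BC was 2.61 times the next. The log2 fold change was -2.05 (standard error 0.47, edgeR adjusted p = 0.0238) and held under 20 of 26 alternatives. With that replicate left out the fold change was -1.64 (edgeR adjusted p = 0.0946). Glyma02g47560.1, on chromosome 2, was at 1755 and 1981 CPM in W and 3156 and 2080.0 CPM in BC at 0 h, and at 1117 and 738 CPM in W and 511 and 239 CPM in BC at 8 h. Its log2 fold change was -2.04 (standard error 0.50, edgeR adjusted p = 0.0353), held under 15 of 26 alternatives, and -2.18 (edgeR adjusted p = 0.0528) with replicate 2 of BC at 0 h left out. The smaller falls of Glyma16g01870.1, Glyma13g22940.1 and Glyma19g37000.1 had log2 fold changes of -1.44, -1.39 and -1.01 and held under 11, 7 and 12 of 26 alternatives. These 3 were named after their values were seen.

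Counted without a test, 10 members had all 4 libraries at 8 h below those at 0 h, beside 1.98% of all models tested, and 4 had them all above, beside 5.86%. At 4 h these counts were 3 below, beside 1.94%, and 6 above, beside 3.38%. Of the 8 falls that passed at 8 h, 7 were without overlap, and 7 belonged to the set of 63. In that set the fitted difference at 8 h was negative in all 63, with a median of -0.85 on the log2 scale, and in the other 37 members in 23, with a median of -0.13. Over all models tested the median was -0.01, and 48.9% had a positive difference. The set of 63 was formed from these same levels, so its common sign is a description. A fit on library totals without TMM moved the median of all models to 0.15 at 8 h and 0.12 for BC minus W, and the members' medians to -0.39 and -0.30, so the difference between the members and all models was -0.51 at 8 h with TMM and -0.53 without it. The TMM factor was lowest, at 0.838, in the library with the highest member share and highest, at 1.27, in the library with the lowest.

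At 24 h, 0 members passed edgeR's test, beside 0.0% of all models. No member had an unadjusted p below 0.05, beside 8.98%, and the count was 0 also with DESeq2, beside 0.326%, and with limma voom, beside 0.0%. At 48 h, 0 members passed, beside 0.0257% of all models, with 3 at an unadjusted p below 0.05, beside 11.3%, 0 with DESeq2, beside 0.36%, and 0 with limma voom, beside 0.0%. The backgrounds of edgeR's test stayed near 0 whichever single library was left out, except replicate 1 of BC at 0 h. Without it, replicate 2 was the only BC library at 0 h, and a larger part of all models passed at both hours. The fitted differences at 48 h were positive in 60 of the set of 63, with a median of 0.47 on the log2 scale. They were positive in 15 of the other 37, with a median of -0.02, and in 46.4% of all models tested. For the set of 63 this is a description, since it was formed from these levels. In the set of 63 both replicates of W at 48 h were above both at 0 h in summed share, and both of BC were below both at 0 h.

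**Figure D5:**
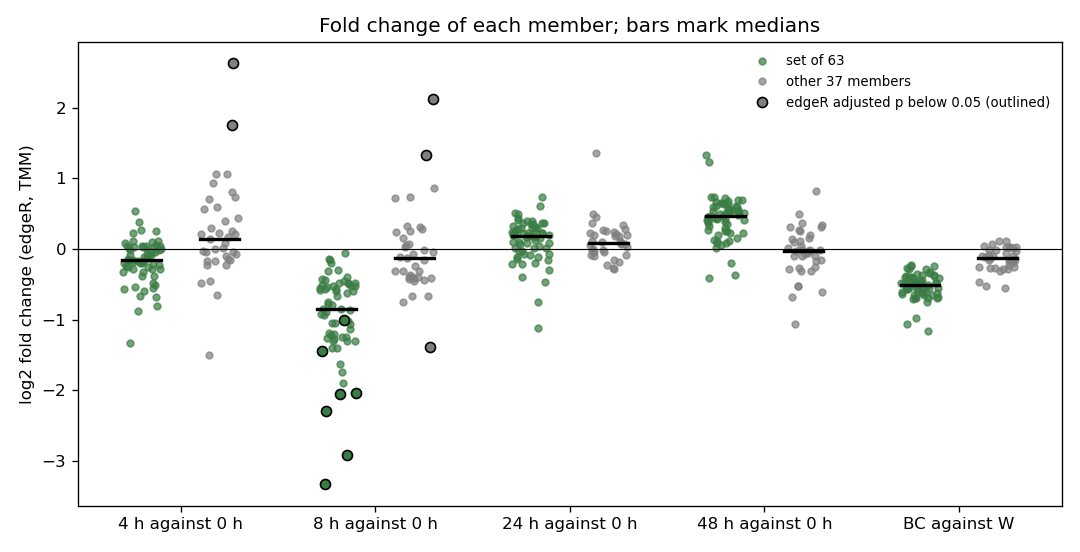
Log2 fold change of each of the 100 members from edgeR with TMM scaling, for each later hour against 0 h and for BC against W, with the set of 63 in green and the other 37 in grey, medians as bars and members past an adjusted p of 0.05 outlined. Of the 12 outlined points, 2 are at 4 h and 10 at 8 h, and the set of 63 is below 0 throughout at 8 h and for BC against W.

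For hours taken jointly, 9 members passed edgeR's test (8 without replicate 2 of BC at 0 h), beside 5.33% of all models, and 30 had an unadjusted p below 0.05, beside 19.8%. Of the next 900 models by mean CPM, 8.33% passed. DESeq2 called 34 members, beside 12.5% of all models and 23.9% of the next 900, and limma voom 4, beside 1.71%. The 9 of edgeR were Glyma18g07290.1, Glyma20g28890.1, Glyma02g41700.1, Glyma11g34230.1, Glyma18g04080.1, Glyma16g01870.1, Glyma17g35720.1, Glyma19g37000.1 and Glyma14g02500.1, of which the last was in neither of the lists above. Glyma14g02500.1 was at 829 and 538 CPM in W and 606 and 608 CPM in BC at 0 h, and at 895 and 1323 CPM in W and 2223 and 834 CPM in BC at 4 h. Its 4 h libraries were all above those at 0 h, though replicate 1 of W only by 66.1 CPM. It was named after its values were seen. The joint count was lowest without either replicate of W at 8 h or replicate 2 of BC at 8 h. In these fits the share of all models and of the next 900 that passed was lower too. The count was highest without replicate 1 of BC at 0 h, where the share of all models was higher. Without the 4 h libraries the joint count was 17, beside 4.34% of all models and 10.1% of the next 900. Leaving out replicate 2 of W at 0 h or replicate 1 of W at 48 h also lowered both the count and the share of all models. So did leaving out either replicate of BC at 24 h or 48 h.

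Between the lines, 0 members passed edgeR's test, beside 0.213% of all models, with 16 members at an unadjusted p below 0.05, beside 9.11%, 1 with DESeq2, beside 0.704%, and 0 with limma voom, beside 0.0565%. The fitted difference BC minus W was negative in 91 of 100 members, while 51.9% of all models tested had a positive one. Its median was -0.41 on the log2 scale in the members, against 0.01 over all models tested. In the set of 63 it was negative in all, a description since the set was formed from these levels. Nearest to a call was Glyma19g06370.1, with a log2 difference of -1.16 (standard error 0.34, edgeR adjusted p = 0.380). It was chosen after its values were seen. It ranged over 457 to 4971 CPM in W (median 1396) and 166 to 1499 CPM in BC (median 775), with the 2 highest libraries at 48 h in W, at 4971 and 3831 CPM. The lines overlapped. The joint test of whether hours acted differently in the lines called 0 members with edgeR, beside 0.0% of all models, with 8 members at an unadjusted p below 0.05, beside 8.02%, 0 with DESeq2, beside 0.373%, and 0 with limma voom, beside 0.0%. Without replicate 1 of BC at 0 h, 4.46% of all models passed that test, and still 0 members.

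In names of the Glyma series, the digits in front of the g are the chromosome, and the number that follows increases along it. The members lay on all 20 chromosomes, from 2 on chromosomes 17 and 20 to 9 on chromosome 8. The only pair of members next to each other was Glyma15g03040.1 and Glyma15g03050.1 on chromosome 15, with means of 695 ± 342 CPM and 1120.4 ± 558 CPM (SD, n = 20) and a correlation of 0.795. Glyma19g06340.1 and Glyma19g06370.1, with 2 models between them, had the highest correlation of all pairs, 0.998. The next closest pairs lay on different chromosomes: Glyma16g25860.1 with Glyma01g38750.1 at 0.995, Glyma07g14340.1 with Glyma03g26740.1 at 0.995, Glyma11g34230.1 with Glyma02g41700.1 at 0.993 and Glyma14g01130.1 with Glyma02g47560.1 at 0.991. Whether such pairs are copies that share reads was not tested, since no sequences of these models were used here.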

How the data were processed

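Leaf RNA libraries of 2 near-isogenic soybean lines were sequenced at 5 hours with 2 replicates each. The labels' protocols describe Trizol extraction and barcoded Illumina mRNA libraries. The authors deposited raw read counts per gene model. The submitters' processing notes list Cuffdiff 1.3.0, edgeR, HTSeq 0.5.3 and TopHat 1.4.1. For the build and the strand setting, nothing is given in the sources used here. The 5 HTSeq totals were left out of library sizes, and of all counted reads 2.79% to 7.46% lay outside models and 1.43% to 1.86% were ambiguous.

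From the deposited counts, CPM was computed over all gene models, and the 100 models of highest mean were taken. The members, the lists and the tests were chosen with earlier results of these data known. Shares of reads were compared with exact permutation tests over libraries (for the hours jointly, 100000 draws), in Python 3.11.15 with scipy 1.17.1. Single members were tested in 1 edgeR 4.0.16 quasi-likelihood fit (R 4.3.3) on all 20 libraries in 10 groups of line by hour, with filterByExpr and TMM, which left 38918 models and 10 residual degrees of freedom. Benjamini-Hochberg adjusted p-values are over all models tested, two-sided, with a threshold of 0.05. The labels name the replicates biological but not how plants were pooled, so p-values judge differences against the spread between these libraries.

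Members named are the 10 of highest mean CPM, up to 5 called rises and falls per comparison, up to 5 called for the hours jointly, the 5 largest and 5 smallest ratios of highest to lowest library, the models around rank 100, and members next to another. Other models named were chosen after their values were seen. The gene lists (photosynthesis, ribosome, other tissues and others) could not be matched to these names, so none was analysed. The lines keep the names of the table's columns, since nothing ties these to the labels. DESeq2 1.42.0, limma voom with library weights (limma 3.58.1), no filter, library totals, library sizes from models that are not members, a replicate block, other rankings, another denominator and leaving out each library were alternatives. For the shares, leaving out a single library also ranked the 100 models anew.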

Additional observations from a re-analysis of the deposited data

Results flagged for a closer look

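Among 203 groups of 4 or 10 libraries screened over 29 quantities (the shares and the 26 named members), 15 held a library whose gap to the nearest other, as a part of the range, exceeded Dixon's 95% limit. For independent groups, each drawn from 1 population, that limit is passed in about 1 in 20. That rate does not apply here: some members were named for wide ranges, and the groups overlap and mix lines or hours. Replicate 1 of BC at 0 h, at 17.1%, stood above the other 3 libraries at 0 h in the share of the 100 members, and in Glyma07g01730.1 it stood below them at 2399.5 CPM. Replicate 2 of BC at 0 h stood apart in Glyma20g28890.1, at 314 CPM below the other 3, in Glyma14g14220.1, at 3402 CPM above the other BC libraries, and in Glyma15g06270.1, at 8464 CPM above both the other 0 h and the other BC libraries. Replicate 1 of BC at 4 h was high in Glyma20g28890.1, at 3552 CPM among BC libraries, and in Glyma19g29180.1, at 1550.0 CPM among both the 4 h and the BC libraries. Replicate 2 of W at 4 h was high in Glyma18g07290.1, at 1732 CPM among the 4 h libraries, and in Glyma09g32120.1, at 2685 CPM among the W libraries. Replicate 1 of BC at 8 h was high in Glyma10g34460.1, at 5662 CPM among BC libraries, and replicate 2 in Glyma05g11630.1, at 1079 CPM among the 8 h libraries. Replicate 2 of BC at 24 h was high in Glyma09g32120.1, at 2321 CPM, and replicate 2 of BC at 48 h in Glyma15g03040.1, at 1707 CPM, both among BC libraries.

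In 15 of 116 contrasts of a later hour with 0 h, both libraries of W moved past both 0 h libraries one way and both libraries of BC the other way. Of these, 14 are contrasts of named members, some of which were named for wide ranges or calls. Over all 100 members it was so in 75 of 400 contrasts, beside 13.1% of the contrasts of all models tested. This difference between lines was not tested hour by hour, and in the joint line-by-hour test of edgeR none of the members passed. Values are log2 ratios of mean levels in W, in BC, and W minus BC. At 4 h, Glyma14g14220.1 had 0.59 in W and -1.67 in BC, a difference of 2.26. For Glyma05g11630.1 the ratios were -0.27 and 0.35, a difference of -0.62. At 8 h, Glyma13g07610.1 had 0.88 in W and -1.69 in BC, a difference of 2.57. For Glyma07g01730.1 the ratios were 1.16 and -1.88, a difference of 3.04. For Glyma19g01050.1 the ratios were 1.06 and -3.26, a difference of 4.31. At 48 h, the share of the set of 63 had 1.03 in W and -0.26 in BC, a difference of 1.28. For Glyma13g07610.1 the ratios were 1.45 and -0.45, a difference of 1.91. For Glyma14g01130.1 the ratios were 1.07 and -0.35, a difference of 1.41. For Glyma07g01730.1 the ratios were -0.47 and 1.29, a difference of -1.76. For Glyma10g34460.1 the ratios were -0.95 and 0.61, a difference of -1.56. For Glyma02g41700.1 the ratios were 0.91 and -0.44, a difference of 1.35. For Glyma14g14220.1 the ratios were 0.58 and -1.45, a difference of 2.03. For Glyma05g11630.1 the ratios were -0.59 and 0.27, a difference of -0.86. For Glyma15g06270.1 the ratios were 1.35 and -2.31, a difference of 3.66. For Glyma19g01050.1 the ratios were 1.89 and -1.04, a difference of 2.92. 

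All 15 rest on 2 libraries per line and hour, with the same 0 h libraries in each contrast of a line.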

How the results depend on the processing

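The numbers of members called moved with the method. DESeq2 called 8 at 4 h (3.93% of all models), 24 at 8 h (6.55%), 34 for the hours jointly (12.5%) and 1 between the lines (0.704%), and limma voom with library weights called 4 at 8 h (1.52%) and 4 for the hours jointly (1.71%). Without the 4 h libraries, a choice made after the values were seen, edgeR called 18 at 8 h (4.13%) and 17 jointly (4.34%), and the joint variance of the hour means of the share was 5.43 (permutation p = 0.0433). The cause was not tested. With a replicate block, which pairs libraries by number, the counts were 3 at 4 h (1.86%), 13 at 8 h (4.10%) and 13 jointly (5.51%). The labels do not say what libraries of the same number share. Over all models tested, their deviations correlated above 0.1 in 15 of 45 pairs of groups, from -0.478 to 0.498, and W and BC at 4 h had -0.401. Over the members it was 22 of 45 pairs, from -0.755 to 0.776, with -0.755 for W and BC at 4 h. Whether the numbers mark a batch was not tested. Leaving out 1 library gave 2 to 7 at 4 h, 3 to 13 at 8 h and 3 to 15 jointly, the last with fewest without replicate 2 of W at 8 h and most without replicate 1 of BC at 0 h, where 16.8% of all models passed. The share of all models that passed moved in these fits as well. At 24 h, at 48 h and for line by hour the count was 0 under each of the 26 alternatives. Beside it, DESeq2 called 0.326%, 0.36% and 0.373% of all models. In the other alternatives that share was near 0, except without replicate 1 of BC at 0 h, where it was larger. Leaving out 1 library gave a share difference from 0 h between -1.90 and 1.00 percentage points at 4 h, between -4.60 and -1.74 at 8 h, between 0.616 and 2.37 at 24 h and between 1.69 and 4.32 at 48 h. The joint variance of the hour means, 4.39 with all libraries, lay between 2.67 and 6.45, with p below 0.05 in 3 of 20, and BC minus W between -3.29 and -1.84 percentage points, with p below 0.05 in 3 of 20. Other rankings of members, all counted reads as denominator, and leaving out the 10 highest members left all share tests on the same side of the threshold. With lines as strata the tests of single hours could not cross it. That exact permutation test has 36 arrangements and a smallest p of 0.0556. Depth limited no member, since each had at least 258 reads in every library. The limits are 2 libraries per line and hour, discordant replicates at 4 h, and a 0 h baseline that holds replicate 2 of BC.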
